A study of Mus musculus with 8 samples.

Results

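The glutathione S-transferases (GST), sulfotransferases (SULT) and UDP-glucuronosyltransferases (UGT) are the transferases of phase II drug metabolism. The genes described here are those whose name on the array begins with Gsta, Gstm, Gstp, Gstt, Gstk, Gstz, Gsto, Mgst, Sult or Ugt and goes on with a digit. They numbered 47 of the 27670 genes on the array, with 65 of its 41174 probes. A gene was kept for fold changes when a probe was well above background on both arrays of at least 1 group, which left 45 of the 47 among 18156 genes of the array. Those 45 were 19 cytosolic and mitochondrial GST, 3 microsomal GST, 10 SULT and 13 UGT genes. Sult3a1 and Ugt8a had no such probe in any group, so neither has a fold change.

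Liver RNA of C57BL/6 mice was hybridised to 8 one-colour Agilent arrays, 2 to each of 4 groups. Knockout mice (KO) carried a floxed Dicer1 allele on both chromosomes together with Cre recombinase under the albumin promoter, which is active in hepatocytes. Their littermates with the same floxed alleles and no Cre were the controls, called WT here, so the floxed allele was common to all groups. Mice of each genotype received 1 intraperitoneal injection of N-ethyl-N-nitrosourea (ENU), an alkylating mutagen, at 120 mg/kg, or of its vehicle dimethylsulfoxide. Both were given in 2 ml/kg to mice labelled as 6-month-old females. The livers of treated mice were taken on day 15 after ENU. The labels state no day for mice that received vehicle, nor how many animals stand behind an array.

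Phase II enzymes attach a polar group to drugs, hormones, bile acids and reactive intermediates, which makes them easier to excrete. GSTs couple electrophiles to glutathione, SULTs transfer sulfate from the donor PAPS, and UGTs transfer a sugar, mostly glucuronic acid, inside the endoplasmic reticulum. The hepatocyte is the main site of all of these reactions in the liver, and in the mouse several of the genes differ between the sexes.

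The 2 arrays of a group differed by no more than their own spot noise. The median difference of 144 to 178 probes with repeated spots was 0.609 to 0.723 of its expected spread within the 4 groups, against 12.2 to 28.1 in the 24 pairs of arrays from different groups. The 2 arrays were therefore counted as 1 RNA sample, giving 4 RNA samples. A comparison of 2 groups is thus 1 sample against 1, with no replicate check and no test, and members are counted there past 2-fold; a smaller difference called higher or lower is a value only. Only the genotype and ENU terms of a limma fit over the 4 RNA samples were tested, and "rose" and "fell" are used for genes past an adjusted p of 0.05 there. That fit has 1 residual degree of freedom, which is how far the genotype difference on vehicle departs from that after ENU. A gene whose genotype difference changed with treatment therefore had a larger standard error (SE) and could miss a call. The 2 differences were 1.86 and 0.76 log2 in Gsta1 (SE 0.33), and -2.35 and -2.32 in Ugt3a1 (SE 0.18). Nothing in the labels says that the samples were separate animals, so variation among animals cannot be read from these p-values. All ENU arrays shared 1 slide and all vehicle arrays the other, so ENU and slide cannot be told apart. KO arrays held 2 positions of each slide and WT arrays the other 2, so genotype and position on the slide cannot be told apart either.

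Levels are given as the log2 processed signal minus the 75th percentile of that array, which was a signal of 437 to 443 for WT on vehicle, 504 to 524 for WT after ENU and 629 to 681 for KO. Each probe has its own binding strength, so a level is compared between groups and not between genes. Dicer1 itself had 2 probes. The dimmer one was lower in KO by 5.51-fold on vehicle and by 2.85-fold after ENU, while the brighter one was 1.41- and 1.19-fold lower; where either lies relative to the deleted exons is not given in the sources used here. Of the hepatocyte markers with a passing probe, 6 of 11 fell in KO and 0 rose, or 2 of 11 under quantile normalization and 10 of 11 under median scaling. Their summed linear level, in units of the array percentile, lay between 3590 and 3635 in WT vehicle, between 3239 and 3357 in WT ENU, between 2001 and 2114 in KO vehicle and between 1941 and 1972 in KO ENU. For these and the marker counts that follow, 15.1% of all 18156 genes fell and 16.8% rose. Markers of other cell types did not move alike. Among them 7 of 8 cholangiocyte and progenitor, 8 of 9 neutrophil, 6 of 9 macrophage, 3 of 9 stellate and 2 of 5 B and plasma cell markers rose and 0 fell. Some risen markers, such as the neutrophil gene Elane, were not well above background on any WT array and passed the filter only through KO. Of the T and NK markers 3 of 7 rose and 2 fell, while 2 of 4 erythroid and 1 of 8 endothelial markers fell and 0 rose. The part of cell composition in the results that follow was not tested, and in a whole-liver sample fewer cells of a type and less RNA per cell cannot be told apart.

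**Figure D1:**
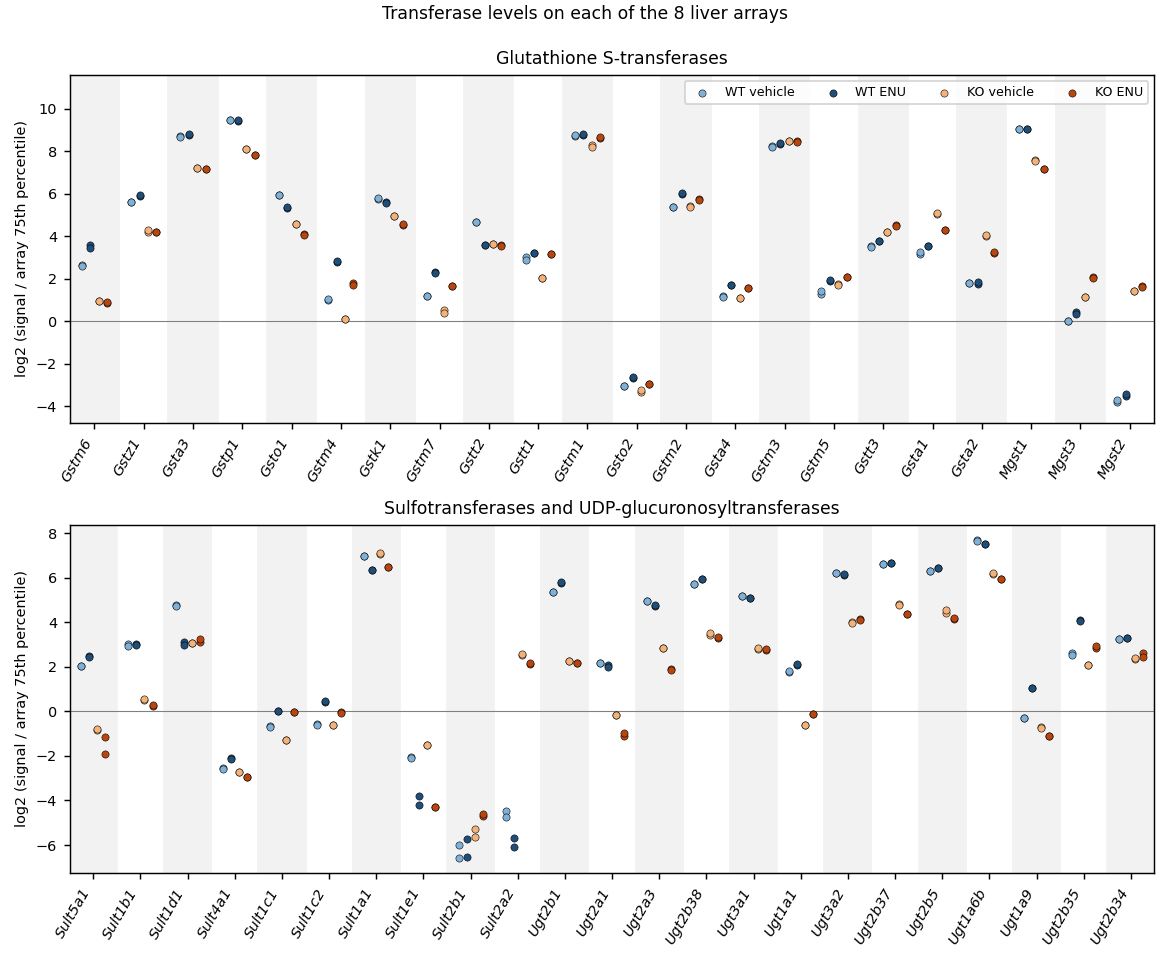
Level of the 45 transferase genes on each of the 8 arrays, as the log2 processed signal relative to the 75th percentile of the array, ordered within a family by the KO minus WT difference. Each point is 1 array and both arrays of a group share a colour; the orange KO points of most UGT genes lie below the blue WT points, while Mgst2 and Sult2a2 lie far above them.

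Most transferases that changed with genotype were lower in KO. Of the 45 genes, 21 fell, 5 rose and 19 were not called, where 15.1% of all 18156 genes fell and 16.8% rose. Quantile normalization in place of the 75th percentile called 15 as fallen and 9 as risen. The median KO minus WT difference was -0.82 log2 over the 45 genes and -0.12 over all genes. The families differed in their counts: 11 of 13 UGT genes fell and 0 rose, 7 of 19 cytosolic and mitochondrial GST fell and 1 rose, 2 of 10 SULT fell and 2 rose, and 1 of 3 microsomal GST fell and 2 rose. Both SULT genes that rose, Sult2a2 and Sult2b1, were not well above background on any WT array and passed the filter only through KO. With probes well above background on all 8 arrays, 4 members rose and 23 fell. Median differences were -2.11 log2 for UGT, -0.49 for cytosolic and mitochondrial GST, -0.28 for SULT and 1.41 for the 3 microsomal GST. On vehicle, 20 of the 45 were over 2-fold lower in KO, against 11.1% of all genes, and 5 were over 2-fold higher, against 17.3%. After ENU the counts were 22 lower, against 14.3%, and 5 higher, against 16.2%. In both treatments 18 members were over 2-fold lower, against 7.55% of all genes, and 4 were over 2-fold higher, against 12.8%.

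**Figure D2:**
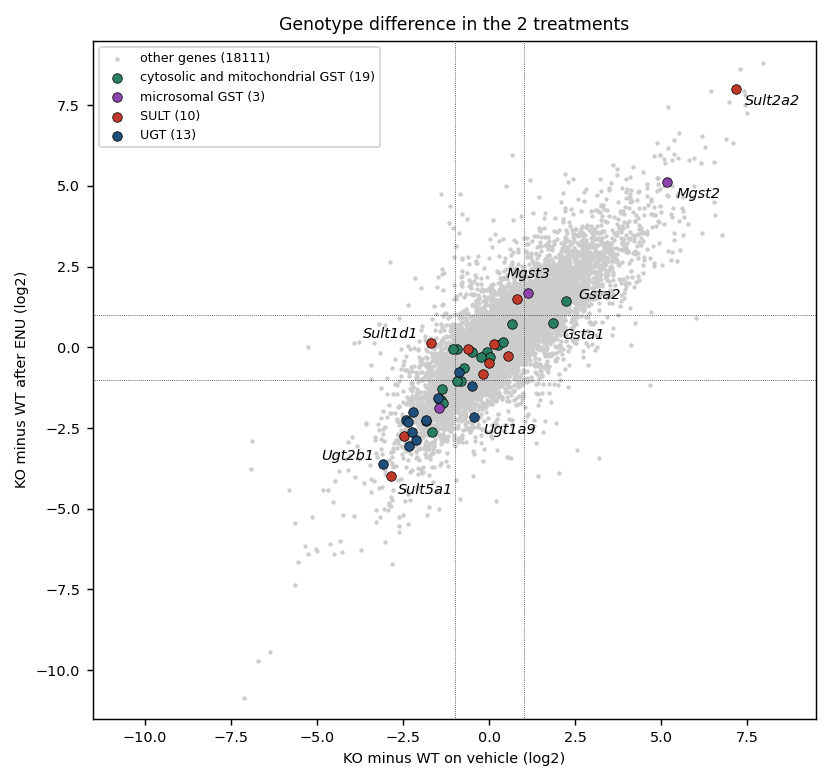
KO minus WT difference (log2) of each gene on vehicle (horizontal axis) and after ENU (vertical axis), with the transferases coloured by family over all other genes in grey; dotted lines mark 2-fold. The 13 UGT genes lie below 0 on both axes, Sult2a2 and Mgst2 lie at the upper right, and Sult1d1 and Ugt1a9 lie off the diagonal. Sult2a2 is drawn at its measured difference, although it was not well above background in WT.

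The UGT genes kept to 1 direction. All 13 were lower in KO in both treatments, where 32 of the 45 members and 8524 of all 18156 genes were. Of these, 10 were over 2-fold lower on vehicle and 12 after ENU, with medians of -2.12 and -2.26 log2. The hepatocyte markers with a passing probe, for comparison, were likewise all lower in KO in both treatments. Their median genotype difference was -0.84 log2, and they ranged from -0.37 (Fgb) to -1.72 (Tat). Under quantile normalization 9 of 13 UGT genes fell and 0 rose, with a median of -1.47 log2, and the hepatocyte markers had a median of -0.10.

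Ugt2b1, which glucuronidates phenols and steroids, had the lowest genotype difference of the family. Its level was 5.34 and 5.34 on the WT vehicle arrays, 5.76 and 5.79 in WT ENU, 2.25 and 2.27 in KO vehicle, and 2.17 and 2.16 in KO ENU. All 4 KO arrays lay below all 4 WT arrays. It was lower in KO by 8.45-fold on vehicle and by 12.3-fold after ENU, and the limma difference was -3.35 ± 0.23 log2 (SE, adjusted p = 0.0104). The probe lies at chr5:86854051-86854110 (mm7).

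Ugt1a1, the bilirubin-conjugating enzyme, also fell. Its levels of 1.76 and 1.79 in WT vehicle and 2.10 and 2.14 in WT ENU compared with -0.62 and -0.63 in KO vehicle and -0.12 and -0.13 in KO ENU. KO was lower by 5.29-fold on vehicle and by 4.75-fold after ENU (limma adjusted p = 0.0108). The probe with the highest signal of the family is listed under Ugt1a6b, a form that conjugates small planar phenols. It was 2.78- and 2.97-fold lower in KO (limma adjusted p = 0.0156). The Ugt1a genes share their later exons and differ in the first one, so the array may not separate them. This brighter Ugt1a6b probe, at chr1:88122519-88122578 (mm7), lies beyond the Ugt1a1 probe at chr1:88115927-88115986, while the Ugt1a9 probe lies at chr1:87975078-87975137. The brighter probe may therefore read later exons that the Ugt1a genes share, so its signal and folds are not credited to Ugt1a6b alone. The exon in which it lies was not checked. A much dimmer Ugt1a6b probe, at chr1:88010877-88010936, gave KO minus WT differences of -2.26 log2 on vehicle and -1.18 after ENU. Its ENU minus vehicle difference in KO was 1.16 log2, against -0.24 for the brighter probe.

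Ugt3a1 and Ugt3a2 use other sugar donors than glucuronic acid, and their probes lie 48.8 kb apart or less on chromosome 15. Ugt3a1 stood at 5.17 and 5.18 in WT vehicle, 5.09 and 5.10 in WT ENU, 2.82 and 2.83 in KO vehicle, and 2.76 and 2.79 in KO ENU. It was thus lower in KO by 5.11-fold on vehicle and 4.99-fold after ENU, and hardly moved with treatment. Ugt3a2 was 4.64- and 4.02-fold lower. Limma gave adjusted p-values of 0.0107 for Ugt3a1 and 0.0115 for Ugt3a2.

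The 8 UGT2 genes and Sult1b1, Sult1d1 and Sult1e1 lie together on chromosome 5, their probes spanning 685.7 kb (chr5:86827294-87512985, mm7). In this cluster 8 of 11 genes fell, against 15.1% of all genes, 0 rose, and Ugt2b35, Sult1d1 and Sult1e1 were not called. Of those that fell, 7 are UGT2 genes, already counted above with the UGT family, and the other is Sult1b1. Ugt2b38 stood at 5.72 and 5.70 in WT vehicle, 5.96 and 5.94 in WT ENU, 3.44 and 3.53 in KO vehicle, and 3.31 and 3.33 in KO ENU, so the genotypes did not overlap. It was lower in KO by 4.67-fold on vehicle and by 6.19-fold after ENU (limma adjusted p = 0.011). Ugt2b37 was 3.54- and 4.90-fold lower and Ugt2b5 was 3.54- and 4.80-fold lower. Ugt2a3 was lower by 4.35-fold on vehicle and by 7.34-fold after ENU, and Ugt2a1, best known from the olfactory epithelium, was 4.99- and 8.32-fold lower. A further Ugt2a1 probe, dim and outside the filter, gave KO minus WT differences of only -0.71 log2 on vehicle and -0.76 after ENU. Ugt2b34, at the end of the cluster where Ugt2b1 lies, was lower by only 1.84- and 1.69-fold (adjusted p = 0.0419). Ugt2b35, the next member after Ugt2b1, was 1.41- and 2.28-fold lower and was not called (adjusted p = 0.0749).

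**Figure D3:**
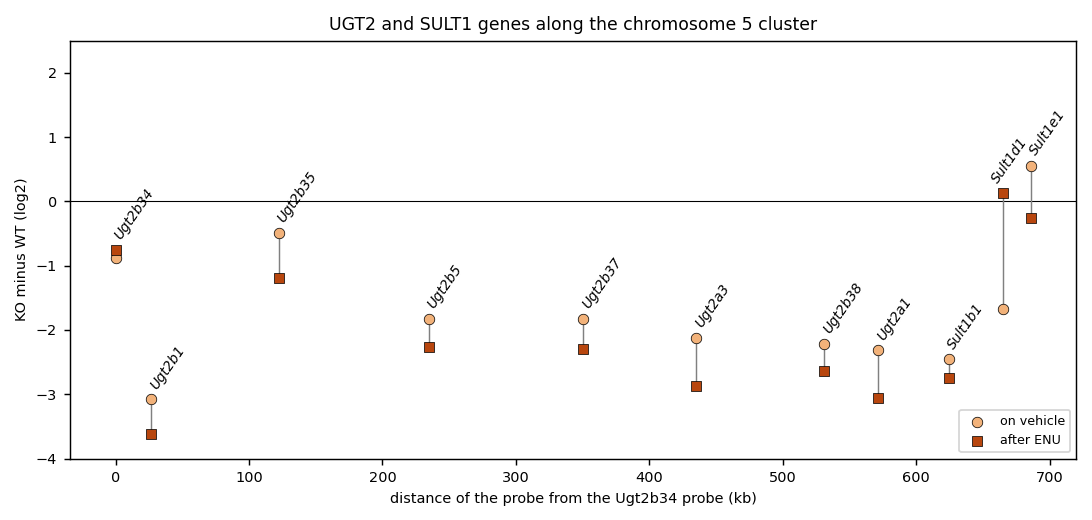
KO minus WT difference (log2) of the 11 transferase genes of the chromosome 5 cluster against the distance of their probes in kb from the Ugt2b34 probe. Circles are the difference on vehicle and squares the difference after ENU, each 1 RNA sample against 1; the genes from Ugt2b5 to Sult1b1 lie between -1.82 and -3.06 log2, and Sult1d1 is lower on vehicle only.

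Ugt2b5, Ugt2b37 and Ugt2b38 have like promoters, shown because all 3 fell and such near-copies may not be separated by their probes. The size of the fall was not particular to them. The limma difference was -2.04 log2 in Ugt2b5, -2.06 in Ugt2b37 and -2.43 in Ugt2b38. It was -2.50 in Ugt2a3, whose promoter was 60.9% identical to that of Ugt2b38. RefSeq promoters (GRCm38.p6) were found for 41 of the 47 members, and the 250 bases before the start were compared. Ugt2b37 and Ugt2b38 were 95.3% identical over the aligned bases, Ugt2b5 and Ugt2b38 88.3%, and Ugt2b5 and Ugt2b37 88.1%; the other pairs of UGT2 promoters were 58.6% to 70.6% identical. Capitals mark the run of 62 bases that all 3 share.
Ugt2b5 promoter, chr5:87140341-87140590, minus strand: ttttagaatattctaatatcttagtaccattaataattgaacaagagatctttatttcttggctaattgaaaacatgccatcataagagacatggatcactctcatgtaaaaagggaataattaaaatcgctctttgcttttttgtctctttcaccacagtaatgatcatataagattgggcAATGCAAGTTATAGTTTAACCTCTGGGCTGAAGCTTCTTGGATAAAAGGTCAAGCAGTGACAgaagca
Ugt2b37 promoter, chr5:87254789-87255038, minus strand: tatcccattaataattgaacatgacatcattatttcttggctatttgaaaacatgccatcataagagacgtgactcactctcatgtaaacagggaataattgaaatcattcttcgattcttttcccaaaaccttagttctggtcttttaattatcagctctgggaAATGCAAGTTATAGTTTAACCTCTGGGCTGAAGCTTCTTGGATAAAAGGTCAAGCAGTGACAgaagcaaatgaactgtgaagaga
Ugt2b38 promoter, chr5:87424204-87424453, minus strand: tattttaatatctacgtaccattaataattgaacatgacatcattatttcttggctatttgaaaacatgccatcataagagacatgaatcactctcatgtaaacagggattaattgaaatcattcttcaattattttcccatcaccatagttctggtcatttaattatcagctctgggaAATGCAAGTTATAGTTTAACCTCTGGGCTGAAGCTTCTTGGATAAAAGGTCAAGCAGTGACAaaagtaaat

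The scaling moved several UGT differences. With quantile normalization in place of the 75th percentile, the brighter Ugt1a6b probe was lower by 1.56-fold on vehicle and by 1.75-fold after ENU. It lost its call in limma (adjusted p = 0.0605), as did Ugt2b34 (adjusted p = 0.119). Ugt2b37 was then 2.19- and 3.16-fold lower, Ugt2b5 2.20- and 3.09-fold lower, Ugt3a2 2.94- and 2.63-fold lower, and Ugt2b38 3.10-fold lower on vehicle, and these 4 were still called.

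The cytosolic and mitochondrial GST genes were split. Gstm6, Gstz1, Gsta3, Gstp1, Gsto1, Gstm4 and Gstk1 fell, Gsta2 rose, and 11 were not called. The direction of this family depended on the scaling, since quantile normalization called 3 as fallen and 4 as risen (median -0.16 log2). Gstm6, a mu-class enzyme, changed most among those that fell: its level was 2.63 and 2.58 in WT vehicle, 3.58 and 3.42 in WT ENU, 0.96 and 0.95 in KO vehicle, and 0.85 and 0.88 in KO ENU. It was lower in KO by 3.14-fold on vehicle and by 6.21-fold after ENU, a limma difference of -2.14 ± 0.31 log2 (SE, adjusted p = 0.0198).

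Gstp1, the pi-class enzyme and the member of its family with the highest signal, is more abundant in male than in female mouse liver. Its levels were 9.48 and 9.47 in WT vehicle, 9.44 and 9.44 in WT ENU, 8.11 and 8.08 in KO vehicle, and 7.83 and 7.82 in KO ENU. All KO arrays lay below all WT arrays, by 2.61-fold on vehicle and 3.07-fold after ENU (limma adjusted p = 0.0166). Although the mice are labelled female, 4 Y-linked genes had a probe well above background on all 8 arrays.

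Gstz1, which isomerises maleylacetoacetate in tyrosine breakdown, was 2.55- and 3.28-fold lower in KO. Gsta3, the alpha-class enzyme that detoxifies aflatoxin epoxide in the mouse, was 2.74- and 3.04-fold lower. Gsto1, an omega-class thioltransferase, was 2.57- and 2.43-fold lower, and the mitochondrial and peroxisomal Gstk1 was 1.78- and 2.05-fold lower. Under quantile normalization Gsta3 (adjusted p = 0.0591), Gsto1 (0.0622), Gstp1 (0.0541) and Gstk1 (0.327) lost their calls in limma. Gstp1 was then lower by 1.59-fold on vehicle and by 1.93-fold after ENU, Gsta3 1.58- and 1.73-fold, Gsto1 1.63- and 1.60-fold, Gstk1 1.12- and 1.29-fold, and Gstz1, still called, 1.65- and 2.14-fold.

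Gsta2 and its neighbour Gsta1, which reduce lipid hydroperoxides, were higher in KO. Gsta2 stood at 1.82 and 1.79 in WT vehicle, 1.73 and 1.84 in WT ENU, 4.02 and 4.03 in KO vehicle, and 3.20 and 3.25 in KO ENU. It rose, by 4.66-fold on vehicle and 2.72-fold after ENU (1.83 ± 0.27 log2, limma SE, adjusted p = 0.0204). Gsta1, at 3.16 and 3.24 in WT vehicle, 3.55 and 3.55 in WT ENU, 5.05 and 5.07 in KO vehicle, and 4.31 and 4.31 in KO ENU, was 3.63- and 1.69-fold higher and just missed the threshold (adjusted p = 0.0536). In both genes the KO level was lower after ENU than on vehicle. Their promoters were 77.0% identical and are shown because both genes were higher in KO and their probes may not separate them; capitals mark the longest run that they share, of 29 bases.
Gsta1 promoter, chr9:78230419-78230668, plus strand: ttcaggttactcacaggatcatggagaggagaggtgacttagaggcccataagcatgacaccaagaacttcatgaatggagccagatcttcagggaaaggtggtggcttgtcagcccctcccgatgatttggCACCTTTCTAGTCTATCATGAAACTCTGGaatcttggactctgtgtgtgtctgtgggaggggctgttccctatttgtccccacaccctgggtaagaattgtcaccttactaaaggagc
Gsta2 promoter, chr9:78347146-78347395, minus strand: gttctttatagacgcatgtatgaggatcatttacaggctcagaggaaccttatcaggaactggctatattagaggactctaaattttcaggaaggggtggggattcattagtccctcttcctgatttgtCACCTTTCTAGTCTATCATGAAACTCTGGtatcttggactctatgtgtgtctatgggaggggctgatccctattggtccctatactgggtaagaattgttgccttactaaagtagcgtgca

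The mu-class genes lie within 142.8 kb on chromosome 3, and 2 of 7 fell. Gstm4 had levels of 1.01 and 1.04 in WT vehicle, 2.78 and 2.85 in WT ENU, 0.10 and 0.11 in KO vehicle, and 1.80 and 1.72 in KO ENU. It fell with genotype (lower by 1.89-fold on vehicle and by 2.08-fold after ENU, limma adjusted p = 0.0297) and had the largest difference between ENU and vehicle among the GST genes. Gstm7 lay in the same order in the 4 groups and was 1.67- and 1.57-fold lower in KO without a call (adjusted p = 0.0574). Gstm2 was 1.02-fold higher on vehicle in KO but 1.23-fold lower after ENU; under quantile normalization it was 1.58- and 1.36-fold higher. The theta-class genes had no call.

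Mgst2 stood apart from the rest of the GSTs. It encodes a membrane-bound enzyme that can also make leukotriene C4. Its level was -3.81 and -3.72 in WT vehicle, -3.53 and -3.44 in WT ENU, 1.40 and 1.40 in KO vehicle, and 1.64 and 1.61 in KO ENU. WT was close to background, and the probe was well above it on only 1 of the 2 WT vehicle arrays. The gene rose by 35.9-fold on vehicle and 34.7-fold after ENU (5.14 ± 0.18 log2, limma SE, adjusted p = 0.0103); with normexp background correction the folds were 12.4 and 14.1.

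Mgst3, a relative with glutathione peroxidase activity, also rose, by 2.20-fold on vehicle and 3.22-fold after ENU (limma adjusted p = 0.0238). Mgst1, the abundant form of the endoplasmic reticulum and the outer mitochondrial membrane, fell. Its levels of 9.03 and 9.03 in WT vehicle and 9.04 and 9.02 in WT ENU compared with 7.59 and 7.54 in KO vehicle and 7.16 and 7.14 in KO ENU. That is lower by 2.76-fold on vehicle and by 3.69-fold after ENU (limma adjusted p = 0.0163), or 1.69- and 2.0-fold, still called, under quantile normalization.

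Among the sulfotransferases Sult2a2 and Sult2b1 rose and Sult5a1 and Sult1b1 fell. Sult2a2 encodes an enzyme that sulfonates hydroxysteroids and bile acids and belongs to a subfamily more abundant in female mouse liver. Its levels were -4.45 and -4.76 in WT vehicle, -6.07 and -5.69 in WT ENU, 2.53 and 2.56 in KO vehicle, and 2.12 and 2.16 in KO ENU. No WT array was well above background, so its fold is a bound, set against the dimmest signals that were well above background on those arrays. It was higher in KO by at least 104-fold on vehicle and by at least 119-fold after ENU (limma adjusted p = 0.0103). A further probe of the gene, also not well above background on any WT array, had KO levels of only -4.06 and -3.87 on vehicle and -4.09 and -4.28 after ENU, and its position is not given in the files. Against the measured WT signals, which are dim, normexp gave folds of 31.2 and 32.9 and the mean of both probes 27.6 and 36.3. Sult3a1, another gene of female mouse liver, was not well above background on any array.

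Sult2b1, a cholesterol sulfotransferase of skin, was well above background in KO ENU only, where it was at least 1.08-fold higher than in WT ENU. Its call (adjusted p = 0.0386) thus rested on signals near background and turned to -0.16 log2 with normexp.

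Sult5a1, a family member without a settled substrate, had the lowest genotype difference of the 10 SULT genes that passed. Its levels were 2.05 and 2.05 in WT vehicle, 2.47 and 2.45 in WT ENU, -0.83 and -0.78 in KO vehicle, and -1.16 and -1.90 in KO ENU. The KO ENU arrays were 0.74 log2 apart, the widest gap between arrays among the members in that group, yet both lay far below WT. It was lower by 7.25-fold on vehicle and by 15.8-fold after ENU (-3.42 ± 0.34 log2, limma SE, adjusted p = 0.0126).

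Sult1b1, which sulfonates thyroid hormones and phenols, stood at 3.04 and 2.95 in WT vehicle, 3.01 and 3.0 in WT ENU, 0.53 and 0.54 in KO vehicle, and 0.24 and 0.27 in KO ENU. It was 5.49- and 6.72-fold lower in KO (limma adjusted p = 0.0105), and its 2 probes differed by 0.03 log2 in their genotype difference. Sult1a1, the phenol sulfotransferase with the highest signal of the family, was 1.1- and 1.08-fold higher in KO and not called, or 1.86- and 1.83-fold higher and called (adjusted p = 0.041) under quantile normalization. One more sulfotransferase carries an older clone name on the array and is outside the 47: Sult2a8, which sulfonates bile acids, was lower in KO by 41.0-fold on vehicle and by 71.7-fold after ENU (-5.76 ± 0.27 log2, limma SE, adjusted p = 0.0103). Gstp3, likewise listed under an older name, was 1.61- and 1.40-fold lower and not called.

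The ENU comparison gave no call. Over all 18156 genes 0 passed the adjusted threshold for ENU in limma; 3974 genes and 10 of the 45 members had an unadjusted p under 0.05, and an intensity-trended prior called 3 genes. In WT, 5 members were over 2-fold higher after ENU, against 7.24% of all genes, and 4 were lower, against 5.5%; 1 of the 4 was Sult2a2, dim in both groups. In KO, 4 were higher, against 4.35%, and 1 was lower, against 5.43%. Both comparisons share no RNA sample with each other but share their slides, and each is 1 sample against 1.

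Gstm4 was 3.46-fold higher after ENU in WT and 3.15-fold higher in KO, and Gstm7 was 2.15- and 2.29-fold higher. In both genes each ENU level lay above the vehicle level of its own genotype. Ugt2b35 was 2.83-fold higher in WT and 1.74-fold higher in KO; its levels went from 2.61 and 2.54 in WT vehicle to 4.08 and 4.08 in WT ENU, and from 2.08 and 2.09 in KO vehicle to 2.85 and 2.93 in KO ENU. Of the SULT1C enzymes, Sult1c2 was 2.03- and 1.47-fold higher and Sult1c1 1.61- and 2.38-fold higher. Gstt1, a theta-class enzyme that acts on small halogenated compounds, was 1.19-fold higher in WT and 2.21-fold higher in KO.

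Sult1e1, the estrogen sulfotransferase, was lower after ENU in both genotypes. Its levels were -2.05 and -2.10 in WT vehicle, -4.22 and -3.82 in WT ENU, -1.53 and -1.51 in KO vehicle, and -4.27 and -4.29 in KO ENU. The difference was 3.85-fold in WT and 6.78-fold in KO, with 1 of 2 WT ENU arrays well above background, and 2.02- and 2.99-fold with normexp. Its genotype difference was small, at 1.47-fold higher on vehicle and 1.20-fold lower after ENU.

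Gstt2, another theta-class gene, and Sult1d1, which sulfonates catecholamines, differed between ENU and vehicle mainly in WT. Gstt2 stood at 4.66 and 4.68 in WT vehicle and at 3.60 and 3.59 in WT ENU, against 3.64 and 3.62 in KO vehicle and 3.56 and 3.56 in KO ENU. Only WT vehicle was thus apart, 2.11-fold above WT ENU and 2.05-fold above KO vehicle. In Sult1d1, too, WT vehicle stood above the rest: its levels were 4.78 and 4.71 in WT vehicle, 3.13 and 2.98 in WT ENU, 3.07 and 3.07 in KO vehicle, and 3.11 and 3.25 in KO ENU. It was 3.23-fold lower after ENU in WT, while in KO the vehicle level lay within 1.08-fold of the ENU level, less than the gap between its 2 KO ENU arrays. Ugt1a9, a form that conjugates bulky phenols, stood at -0.31 and -0.30 in WT vehicle, 1.03 and 1.07 in WT ENU, -0.70 and -0.77 in KO vehicle, and -1.13 and -1.11 in KO ENU. Here WT ENU was apart, 2.56-fold above WT vehicle, while KO was 1.30-fold lower after ENU. Whether these effects differ between the genotypes was not tested.

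**Figure D4:**
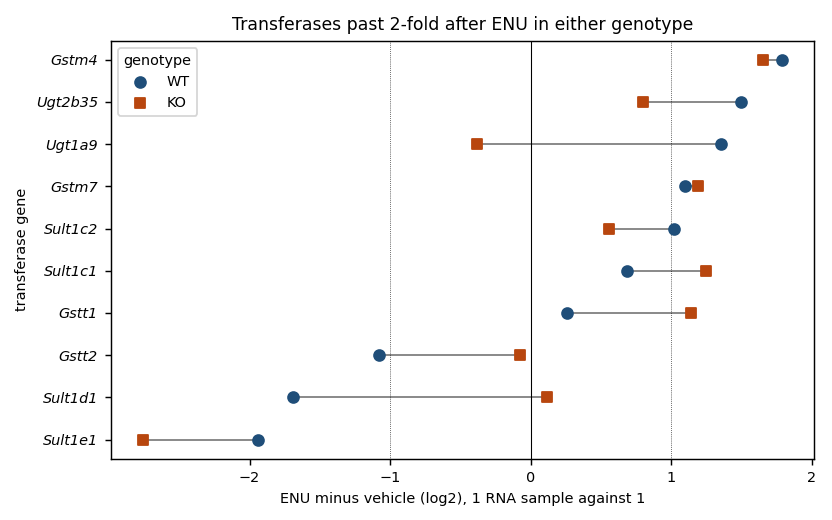
ENU minus vehicle difference (log2) in WT (circles) and in KO (squares) for the transferases that passed 2-fold in either genotype, each 1 RNA sample against 1; dotted lines mark 2-fold. Sult2a2 is left out because it was dim in both WT groups. Gstm4 and Gstm7 lie above 2-fold in both genotypes, Sult1e1 lies below it in both, and Sult1d1 and Ugt1a9 lie on opposite sides of 0.

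Sult1d1 and Ugt1a9 are shown by promoter with Ugt1a1 because these 3 were the only members with a match to a motif of the hepatocyte factor HNF1, searched on both strands as GTTAAT, any base, then ATT. The motif was found in 0.371% of 32851 mouse promoters of the same length and in 3 of the 52 promoters of members. Its first base lies 79 bases before the start in Sult1d1, 95 in Ugt1a9 and 45 in Ugt1a1, and capitals mark it. Only Ugt1a1 of the 3 was called for genotype.
Sult1d1 promoter, chr5:87569007-87569256, minus strand: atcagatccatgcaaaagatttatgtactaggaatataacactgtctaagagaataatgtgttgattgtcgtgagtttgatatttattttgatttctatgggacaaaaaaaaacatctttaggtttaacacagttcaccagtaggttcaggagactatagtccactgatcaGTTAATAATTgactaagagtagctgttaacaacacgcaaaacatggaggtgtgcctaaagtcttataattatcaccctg
Ugt1a9 promoter, chr1:88070529-88070778, plus strand: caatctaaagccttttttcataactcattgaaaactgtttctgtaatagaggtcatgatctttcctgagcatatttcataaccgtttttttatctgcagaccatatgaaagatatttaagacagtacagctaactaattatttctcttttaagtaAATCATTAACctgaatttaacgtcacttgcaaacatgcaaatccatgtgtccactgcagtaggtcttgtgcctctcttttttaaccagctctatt
Ugt1a1 promoter, chr1:88211709-88211958, plus strand: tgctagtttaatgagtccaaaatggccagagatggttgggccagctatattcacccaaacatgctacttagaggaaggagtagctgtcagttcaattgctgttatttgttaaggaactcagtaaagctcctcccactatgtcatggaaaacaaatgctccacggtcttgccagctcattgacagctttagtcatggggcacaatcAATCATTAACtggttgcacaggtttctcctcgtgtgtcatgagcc

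The core of the antioxidant response element, TGACNNNGC on both strands, was found in 10.2% of all promoters and in 4 of 52 of the members, those of Gsta3, Gstm5, Gstm7 and Mgst1. The STAT5 motif TTCNNNGAA was in 7.02% of all promoters and in 3 of 52, those of Gsta1, Gstm6 and Sult3a1. CAAAGTCCA, a motif specific to HNF4, was in 0.384% of all promoters and in 0 of 52. A match is a description of these letters only.

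The genes around the transferases were taken from lists of known pathway members. The counts of each list compare with 15.1% of all 18156 genes that fell and 16.8% that rose. Of 16 genes of glutathione supply and recycling, 7 fell and 1 rose in KO. The list also holds enzymes that degrade glutathione, so the count is not one of supply alone. Of the genes of glutathione synthesis, Gclm, lower in KO, and Gss, higher in KO, were not called. Gclc, the catalytic subunit of the rate-limiting step, was lower by 2.29-fold on vehicle and by 4.40-fold after ENU (limma adjusted p = 0.0279). Ahcy, which feeds homocysteine into cysteine synthesis, was 3.35- and 3.85-fold lower, and Chac1, which degrades glutathione, 3.29- and 10.3-fold lower. With quantile normalization 3 of the 16 fell. Ggt1, which breaks down glutathione outside the cell, rose by at least 2.24-fold on vehicle and at least 5.22-fold after ENU. It was not well above background on any WT array and passed the filter only through KO, so its call rests on dim WT signals.

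The list for UDP-glucuronic acid supply held 5 genes, of which 3 fell and 0 rose: Ugp2, which makes UDP-glucose, was 1.75- and 2.06-fold lower, Ugdh, which oxidises it, 1.59- and 1.99-fold lower, and Slc35a3 1.88- and 1.64-fold lower. Slc35a3 is best known as a Golgi transporter of UDP-N-acetylglucosamine, and without it 2 of 4 fell. Quantile normalization called 0 of these 5, and 2 had an unadjusted p under 0.05. Of 6 genes of PAPS supply only Bpnt1, which removes the spent donor, was called, 2.47- and 1.65-fold lower, and under quantile normalization 0 were, with 2 at an unadjusted p under 0.05. Of 5 conjugate hydrolases limma called 0, with 1 at an unadjusted p under 0.05; median scaling and normexp each called 1 of them as fallen. Among 11 other conjugation enzymes 6 fell and 0 rose, with the methyltransferase Inmt at 3.72- and 3.80-fold and the glycine conjugase Glyat at 3.47- and 4.0-fold lower.

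The export pumps split in direction, 3 of 7 rising and 3 falling. Abcc5 rose by 6.25- and 7.65-fold, Abcc4 by 3.76- and 5.19-fold and Abcc1 by 4.29- and 2.54-fold, whereas Abcc3 was 3.01- and 2.61-fold lower and Abcg2 2.80- and 3.19-fold lower. Of 9 relatives of the GSTs outside the named families 5 rose and 0 fell. Hpgds, the sigma-class GST that makes prostaglandin D2, rose by at least 1.54-fold on vehicle and at least 2.65-fold after ENU. It too was not well above background on any WT array and passed the filter only through KO. Alox5ap, a partner of leukotriene synthesis, rose by 3.71- and 2.65-fold. Clic1 rose as well, by 3.88- and 2.66-fold, as did Clic5, by 4.2- and 1.81-fold, and Clic4, by 1.86- and 1.65-fold. The Clic5 probe was not well above background on either WT vehicle array, so its fold on vehicle rests on a dim signal. Of these relatives, Hpgds and Alox5ap are best known from immune cells. The macrophage markers, of which 6 of 9 rose, had a summed level of 79.2 and 80.1 on the WT vehicle arrays, 131 and 134 in WT ENU, 185 and 186 in KO vehicle, and 341 and 346 in KO ENU. The part of such cells in the values of these relatives was not tested.

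Of 24 transcription factors known to act on phase II genes, 5 fell and 1 rose, a share fallen near the 15.1% of all genes. The counts were 3 fallen and 3 risen under quantile normalization, 10 and 1 under median scaling, and 8 and 3 with normexp. Nr1i3 (CAR), a receptor that induces UGT, SULT and GST genes in response to drugs, was lower in KO by 5.92-fold on vehicle and by 5.08-fold after ENU (limma adjusted p = 0.0107). Ppara was 2.89- and 3.95-fold lower, the bile acid receptor Nr1h4 2.63- and 2.33-fold lower, and Bcl6, a repressor more abundant in male liver, 4.77- and 2.41-fold lower. Cux2, a factor of female liver, rose by at least 8.47-fold on vehicle and at least 15.9-fold after ENU. It was not well above background on any WT array and passed the filter only through KO, so its call rests on dim WT signals. Outside the transferases, 3 of 12 targets of the stress factor NRF2 rose, against 16.8% of all genes, and 2 fell, against 15.1%. Under median scaling 2 rose and 4 fell. Cbr3, a carbonyl reductase, rose by 2.82- and 3.35-fold, G6pdx by 2.57- and 1.98-fold, and Nqo1, a quinone reductase, by 2.38- and 1.60-fold. Me1, which makes NADPH, was 3.87- and 5.96-fold lower, and Gclc, given above, fell as well.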

How the data were processed

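The values are intensity readings of 8 one-colour arrays deposited by the authors; per the file headers the processed signal came from Agilent Feature Extraction 10.7.1.1, already background-corrected, while the submitters' processing notes name 10.5.1. There were 45018 spots per array, 43379 without the controls; 54.7% to 69.3% were well above background and 0 saturated. The number of arrays limits the precision. Coordinates are those of the files (mm7).

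From these intensities, log2 processed signal minus the array's 75th percentile was computed. Controls and outliers were dropped, repeated spots averaged, and the brightest passing probe stood for a gene. A group in which no probe of the gene was well above background gave a bound. Names were updated through RefSeq (GRCm38.p6): 22944 probes by accession, 6664 by symbol and 3108 by synonym, while 8458 kept the name in the files. Arrays of a group were averaged to 1 RNA sample, and limma 3.58.1 (R 4.3.3; lmFit, eBayes, Benjamini-Hochberg over 18156 genes) fitted genotype and treatment, after a test on simulated data. Promoters were aligned with Biopython 1.88. Probe sequences were not used here, so signal shared between near-identical genes (Gsta1 and Gsta2, the Gstm, Gstp, Ugt1a, Ugt2b and Sult2a genes) was not checked.

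Values are given for members called for genotype, the brightest of each family, the 12 members with the largest difference in each single comparison, relatives renamed since, Dicer1, and up to 4 called genes of each list. The members and lists were chosen with earlier results of these data known. Alternatives were normexp (offset 50), quantile and median scaling, other filters on dim probes, the mean of all probes, each array left out, genotype alone and a trended prior.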

Additional observations from a re-analysis of the deposited data

Results flagged for a closer look

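For Sult1d1 and Ugt1a9 the ENU minus vehicle difference had opposite signs in the 2 genotypes, for each pairing of the arrays. That of Sult1d1 was -1.69 log2 in WT and 0.12 in KO, where it was smaller than the gap between the 2 KO ENU arrays (3.11 and 3.25), so no direction in KO is drawn from it. That of Ugt1a9 was 1.36 log2 in WT and -0.38 in KO. Each value is 1 RNA sample against 1, ENU and slide cannot be told apart, and the difference between the genotypes was not tested.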

How the results depend on the processing

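No paired analysis was possible because the 2 arrays of a group count as 1 RNA sample. Of the 26 members called for genotype, 17 were called under each alternative that kept them, 14 that fell and 3 that rose (Gsta2, Mgst2 and Sult2a2). The other 9 lost the call under at least 1: Sult2b1, Gsta3, Gstk1, Gsto1, Gstp1, Ugt1a6b, Ugt2b34, Gstm4 and Mgst3. A further 6 members gained one. Mgst2, Sult2a2 and Sult2b1 had no probe well above background on all 8 arrays, so that filter dropped them. They were thus tested under 15 alternatives, against 16 for Gsta2. Quantile normalization called 9 members as risen and 15 as fallen, 37.5% risen against 19.2%. It left 8 members over 2-fold higher and 13 lower in KO on vehicle, and 14 lower after ENU. Genes that fell numbered 4127 with normexp, 4760 with median scaling and 694 with genotype alone, where 1387 genes and 3 members rose. Risen genes made up 36.6% of calls with normexp, 36.7% with median scaling, 36.6% with probes well above background on all 8 arrays and 66.7% with genotype alone, against 52.6%. The median of all genes was -0.32 log2 with median scaling and -0.04 with quantile normalization, against -0.12. Sult2b1 turned to -0.16 log2 with normexp, and to -0.0191 after ENU. With probes well above background on all 8 arrays, 3 members were over 2-fold higher in KO on vehicle, 2 after ENU, 2 lower after ENU in WT and 0 lower in KO. That filter, normexp and the trended prior each called 3 genes for ENU. With each array left out in turn, 4 to 5 members rose and 21 fell, 2838 to 3051 genes rose, 2360 to 2810 fell, and 1 to 2 members were lower after ENU in KO, 2 without the first KO ENU array; Sult2b1 alone lost its call, without the second WT vehicle, second WT ENU or first KO vehicle array (adjusted p = 0.0771, 0.0571 and 0.0572). The cause of these shifts was not tested. Members near background, Mgst2 in WT, Sult2a2 in WT, Sult1e1 after ENU and Sult2b1, are those whose folds the dim signal limits.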
